A study of Mus musculus with 2 samples.

Results

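The nuclear genes of the mitochondrial respiratory chain were described here as 1 module in myeloid cells of mouse mammary tumors. Members were all genes whose symbol starts with Ndufa, Ndufb, Ndufc, Ndufs, Ndufv, Uqcr, Cox4i, Cox5, Cox6, Cox7, Cox8 or Atp5, leaving out symbols that hold -ps. This name rule found 88 of the 28692 genes listed, and used no measured value. By name and known place in the chain, 36 members belong to complex I, 8 to complex III, 20 to complex IV and 15 to complex V, and 9 are not subunits (7 Ndufaf assembly factors, Atp5s and Atp5sl). Ndufa4 and Ndufa4l2 carry complex I symbols but were counted with complex IV, where Ndufa4 is known to sit. Their levels were read by cell lineage, by cell state and by library, beside the 13 protein genes of mitochondrial DNA.

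The cells came from orthotopic 4T1 tumors, a transplantable triple-negative mammary carcinoma of BALB/c mice, grown in the mammary fat pad of female BALB/c mice that were 8 to 10 weeks old at injection. One library came from 4T1p tumors (the parental line, resistant to anti-PD1) and the other from 4T1m tumors (a polyclonal line made from it with a mutagen, responsive to anti-PD1). Both groups received anti-PD1, an antibody that blocks an inhibitory receptor of T cells, and were sampled after 2 weeks of it, and in both the GR-1+ cells of the tumor were selected with magnetic beads, so the libraries hold no untreated and no unselected cells. There is 1 library per tumor line, and the number of mice in each is not given in the sources used here, so tumor line, animals, sort and library preparation cannot be told apart.

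The respiratory chain moves electrons from NADH and succinate to oxygen. Complexes I, III and IV pump protons across the inner mitochondrial membrane as they do so, and complex V, the ATP synthase, uses that gradient to make ATP. Complex II joins the chain from the citric acid cycle and pumps no protons. Most subunits are encoded in the nucleus and imported, while a small core of complexes I, III, IV and V is encoded in mitochondrial DNA and translated inside the organelle, so complete complexes need RNA from both genomes. Mature neutrophils are known for few mitochondria and a strong reliance on glycolysis, whereas monocytes and macrophages carry more mitochondria.

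After limits of 250 to 5000 genes, at most 27000 UMIs (unique molecular identifiers, each standing for 1 captured RNA molecule) and at most 1 mitochondrial UMI in 8, 1128 of 1641 barcodes remained in the library labelled 4T1p and 2092 of 2749 in the library labelled 4T1m, with medians of 1977.5 and 2709 UMIs. The order of the medians in the files is the reverse of the order the study's text gives for these labels. Whether the labels were exchanged could not be settled here, and an exchange would turn the sign of every ratio of 4T1m over 4T1p below, while the ratios between lineages would keep theirs. No barcode was shared. Clusters made without the 88 members and the 13 mitochondrial genes gave 868 and 1015 monocytic-like cells, 251 and 1022 granulocytic-like cells, 1 and 34 B cell-like cells and 8 and 21 T cell-like cells. The 10 monocytic markers summed to 31593 and 17703 counts per 1e+06 UMIs (CPM) in monocytic-like cells and to 892 and 744 CPM in granulocytic-like cells, and the 8 granulocytic markers to 979 and 1365 CPM in monocytic-like and 163834 and 165007 CPM in granulocytic-like cells. In monocytic-like cells the log2 ratio of 4T1m over 4T1p was -0.93 for C1qa, -0.96 for C1qb, -0.73 for C1qc and -1.03 for H2-Ab1. The study's text places C1q and MHC class II genes in monocytic cells enriched in 4T1m tumors. Cluster 6, with C1qb, H2-Eb1 and Aif1 among its leading genes, held 194 of the 868 and 64 of the 1015 monocytic-like cells. The study links such genes to its monocytic progenitor cluster, and reports that cluster as more abundant in 4T1m tumors. Its cells were picked by differential abundance or by other marker sets, so these values are not like for like and do not settle the labels. With 1 library per tumor line no test between conditions can be made. Every value below is a pooled level with a 95% interval that covers counting error only, and a call means a difference of at least 1.5-fold.

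Nuclear respiratory chain RNA took up a 3.05-fold (library labelled 4T1p) and 2.99-fold (library labelled 4T1m) larger share of the UMIs in monocytic-like than in granulocytic-like cells. In monocytic-like cells the 88 genes summed to 19646 CPM (95% interval 19518 to 19774) in the library labelled 4T1p and to 16037 CPM (15945 to 16130) in the library labelled 4T1m, which was 1.96% and 1.60% of all UMIs. In granulocytic-like cells the sums were 6440 CPM (6268 to 6616) and 5368 CPM (5287 to 5449), or 0.644% and 0.537% of UMIs. The log2 ratio of monocytic-like over granulocytic-like cells was 1.61 (1.57 to 1.65) in the library labelled 4T1p and 1.58 (1.56 to 1.60) in the library labelled 4T1m. Counted per cell, a monocytic-like cell held on average 105 and 114 UMIs of these genes and a granulocytic-like cell 21.1 and 16.5. The plot of levels by lineage shows all 72 members compared above the line of equal levels.

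**Figure D1:**
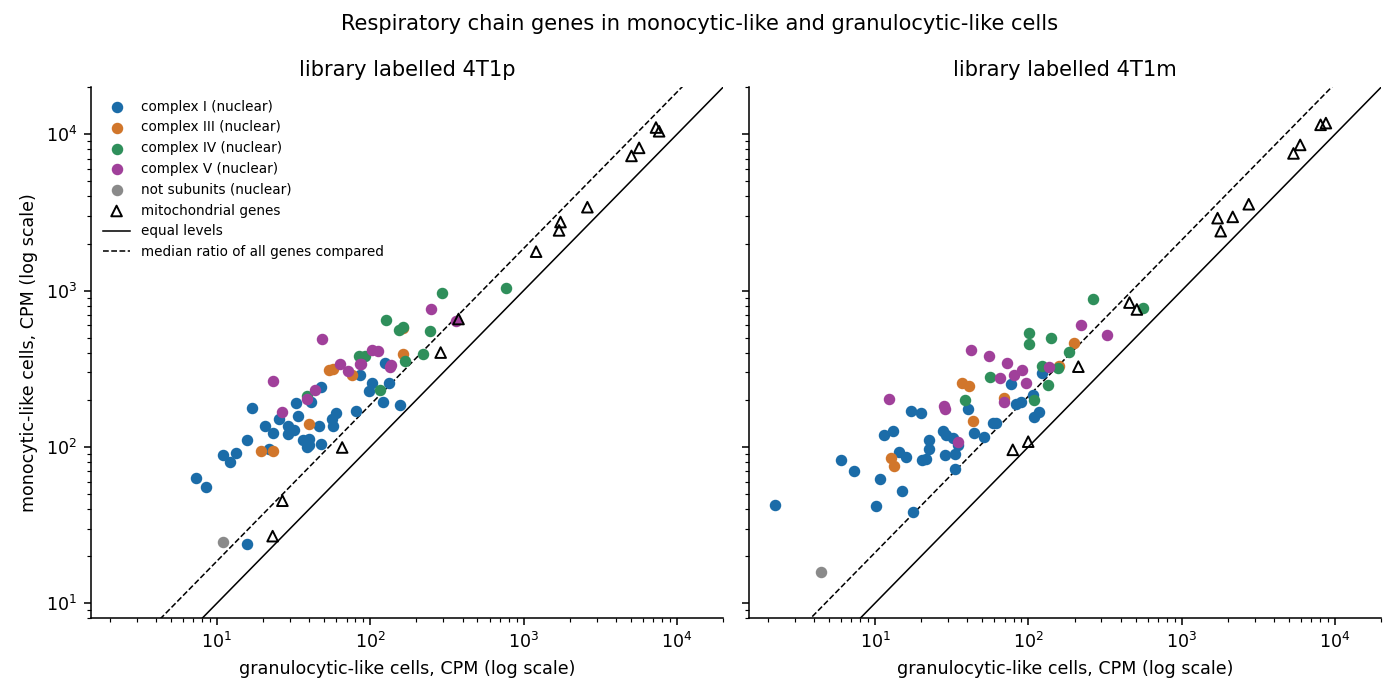
Level of each of the 72 nuclear genes compared (dots, colored by complex) and of the 13 mitochondrial genes (triangles) in monocytic-like cells against granulocytic-like cells, in CPM on log axes, with 1 panel per library. The solid line marks equal levels and the dashed line the median ratio of all genes compared: the nuclear genes lie mostly above the dashed line, and all 13 mitochondrial genes lie between both lines in each panel.

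Of the 88 members, 72 held at least 100 UMIs over both lineages in each library and were compared gene by gene. At least 1.5-fold higher in monocytic-like cells in both libraries were 69 of the 72, and 0 were lower. Among all 5122 genes compared 53.9% were called higher and 13.3% lower, so the same direction was the usual one in these cells. The median log2 ratio over members was 1.93 and 1.81 in the libraries labelled 4T1p and 4T1m, beside 0.90 and 1.07 over all genes compared. Relative to that median shift, the summed log2 ratio was 0.71 and 0.50 and the count fell to 41 of 72, beside 1657 of 5122 genes higher and 1691 lower. All 72 log2 ratios were above 0 in each library, beside 3593 and 3774 of the 5122 genes compared. For 70 of the 72 members the counting intervals in both libraries lay above 0, a count that is not given here for all genes.

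Among the complexes the summed log2 ratio was 1.62 in both libraries for complex I, 1.89 and 1.66 for complex III, 1.37 and 1.39 for complex IV, and 1.82 and 1.75 for complex V. Complex IV therefore had the lowest of the 4 summed ratios in each library. Its interval in the library labelled 4T1m, 1.35 to 1.43, did not reach those of complex I (1.58 to 1.67), complex III (1.59 to 1.73) or complex V (1.70 to 1.79). The granulocytic-like sums of complex IV were 2465 and 1973 CPM, and Cox8a, with a mean ratio of 0.46 and levels given below, made up a large part of them. The sum without Cox8a was not computed, so the rank is not a trait shown for the complex as a whole. The median ratio over genes compared was 1.78 and 1.59 for complex IV and 1.88 in both libraries for complex I. Called higher were 34 of 36 complex I genes, 8 of 8 complex III genes, 11 of 12 complex IV genes compared and 15 of 15 complex V genes. The only assembly factor above the minimum, Ndufaf3, was called higher as well. The plot of ratios by gene shows that the genes of 1 complex ranged from close to 0 to near 4 on the log2 scale.

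**Figure D2:**
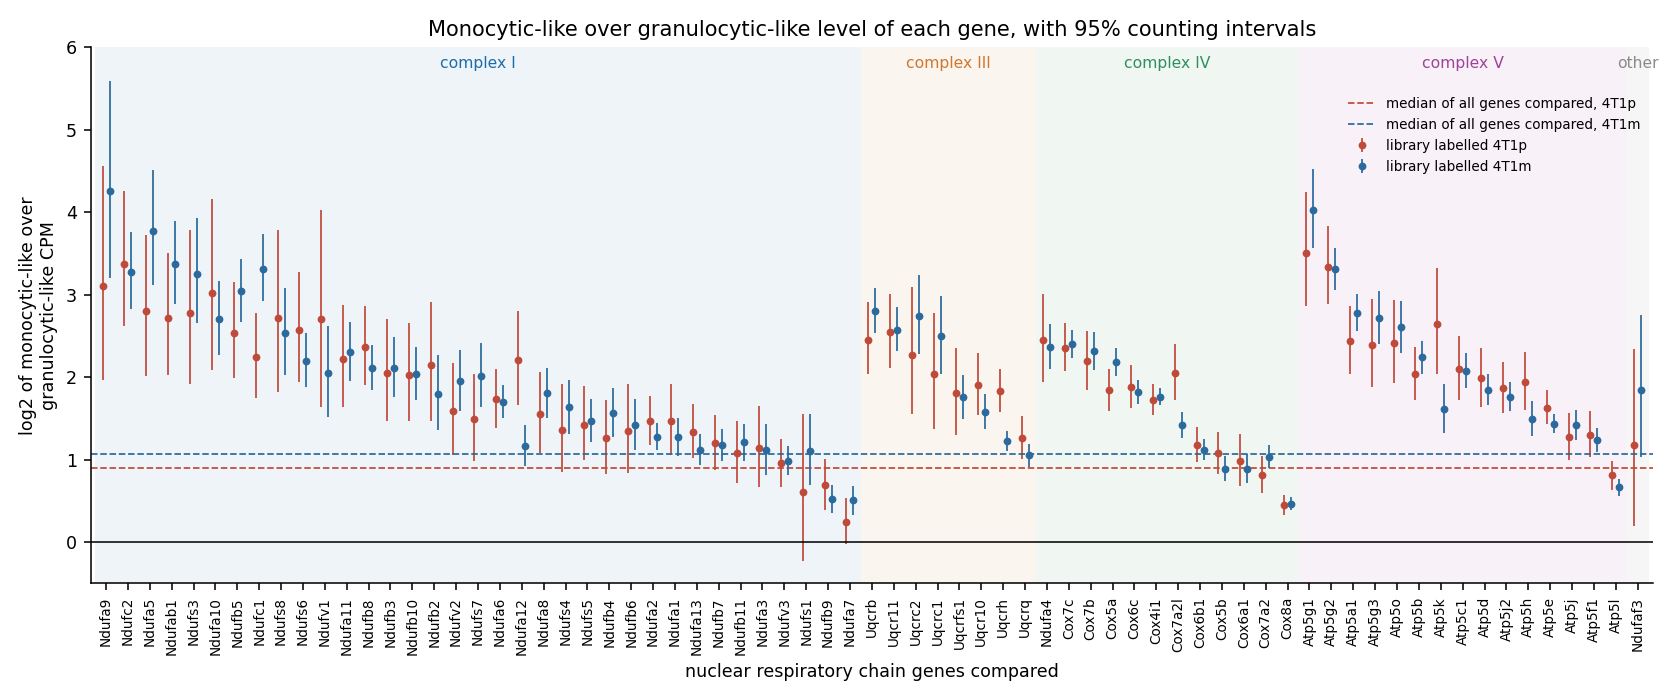
Log2 ratio of monocytic-like over granulocytic-like CPM for 71 of the 72 genes compared, grouped by complex and ordered by the mean of both libraries, where "other" is Ndufaf3. Dots are the libraries labelled 4T1p (red) and 4T1m (blue), bars are 95% counting intervals, dashed lines are the median over all genes compared (0.90 and 1.07), and only the bars of Ndufs1 and Ndufa7 in the library labelled 4T1p reach below 0.

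The members with the highest ratios were Atp5g1, Ndufa9, Ndufc2, Atp5g2 and Ndufa5. Atp5g1 and Atp5g2 encode the c subunit, whose ring in the membrane part of the ATP synthase turns as protons pass. Atp5g1 was at 263 and 201 CPM in monocytic-like cells (4T1p library first, here and in all pairs that follow) and at 23.1 and 12.4 CPM in granulocytic-like cells, log2 ratios of 3.51 (2.86 to 4.25) and 4.02 (3.56 to 4.52). The granulocytic-like levels rest on 19 and 39 UMIs. Atp5g2 was at 491 and 416 CPM against 48.6 and 41.9 CPM, ratios of 3.34 and 3.31. Atp5g3, the remaining gene for the same subunit, had lower ratios of 2.39 and 2.72 (204 and 184 CPM against 38.8 and 28.0 CPM). For Atp5g3 the interval in the library labelled 4T1m, 2.40 to 3.04, ended below those of Atp5g1 (3.56 to 4.52) and Atp5g2 (3.06 to 3.57).

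Ndufa9, which sits where the peripheral and membrane arms of complex I meet, was at 62.7 and 42.7 CPM in monocytic-like cells and at 7.28 and 2.22 CPM in granulocytic-like cells, where it had 6 and 7 UMIs in all. Ndufc2, an accessory subunit of the membrane arm, was at 176 and 126 CPM against 17.0 and 13.03 CPM. Ndufa5, an accessory subunit of the peripheral arm, was at 110 and 82.7 CPM against 15.8 and 6.04 CPM. In each of these genes both monocytic-like values lay above both granulocytic-like values, which follows from their choice by the highest ratios.

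At the other end were Ndufs1, Atp5l, Ndufb9, Cox8a and Ndufa7, all with ratios under the median of all genes except Ndufs1 in the library labelled 4T1m. Cox8a, a small membrane subunit of complex IV, was at 1044 and 777 CPM in monocytic-like cells and at 762 and 563 CPM in granulocytic-like cells, ratios of 0.45 (0.33 to 0.58) and 0.46 (0.39 to 0.54). Ndufa7, an accessory subunit of complex I, was at 185 and 155 CPM against 155 and 109 CPM, ratios of 0.25 (-0.02 to 0.53) and 0.51 (0.33 to 0.69). Ndufb9 had 0.69 and 0.53. These 3 genes were the members compared that missed the 1.5-fold call. Atp5l, the g subunit of the ATP synthase membrane part, was at 636 and 520 CPM against 363 and 328 CPM. In all 5 genes the order of the lineages was the same as for the other members, with smaller distances.

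The subunits that carry the redox cofactors or the catalytic sites lay on both sides of the members' median. In complex I, Ndufv1, which binds the flavin that accepts electrons from NADH, had log2 ratios of 2.70 and 2.05, and its partner Ndufv2 1.59 and 1.95. The iron-sulfur subunits Ndufs8 and Ndufs7 had 2.71 and 2.53, and 1.49 and 2.02. Ndufs3, a core subunit of the peripheral arm, had 2.78 and 3.26. Ndufs1, the largest iron-sulfur subunit of the peripheral arm, stood apart from these with 0.61 (-0.23 to 1.56) and 1.11 (0.69 to 1.55), from 24.02 and 38.4 CPM against 15.8 and 17.8 CPM. Uqcrfs1, the Rieske iron-sulfur protein of complex III, had 1.80 and 1.75. The alpha and beta subunits that form the catalytic head of the ATP synthase, Atp5a1 and Atp5b, had 2.43 and 2.78, and 2.04 and 2.24.

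Promoter sequences are shown for 4 members to set the ends of this range side by side. RefSeq promoter entries (GRCm38.p6, 250 bases before to 50 after each start) matched 73 of the 88 members, 3 of them by an older symbol. Shown are the 250 bases before the start, 5′ to 3′ on the gene's strand, of the member with the highest ratio (Atp5g1, chr11:96075632-96075881, minus strand) and of the member with the lowest ratio that has a single entry (Cox8a, chr19:7217617-7217866, minus strand). The others are the most abundant members with a single entry that hold, within these 250 bases, the motif of the transcription factor NRF1, which is known to bind promoters of respiratory genes: Atp5g2 (chr15:102671048-102671297, minus strand) and Atp5h (chr11:115419920-115420169, minus strand). Capitals mark matches on either strand to the motifs of NRF1 (GCGCA, any base, then GCGC), of the ETS factor GABP (CCGGAAG) and of YY1 (AAGATGG), and to the CCAAT box (CCAAT).
Atp5g1: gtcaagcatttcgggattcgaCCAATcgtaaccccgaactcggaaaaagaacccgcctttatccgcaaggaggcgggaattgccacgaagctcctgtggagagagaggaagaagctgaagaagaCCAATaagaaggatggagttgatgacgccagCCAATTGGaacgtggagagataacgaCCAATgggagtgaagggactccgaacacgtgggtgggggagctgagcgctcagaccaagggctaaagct
Cox8a: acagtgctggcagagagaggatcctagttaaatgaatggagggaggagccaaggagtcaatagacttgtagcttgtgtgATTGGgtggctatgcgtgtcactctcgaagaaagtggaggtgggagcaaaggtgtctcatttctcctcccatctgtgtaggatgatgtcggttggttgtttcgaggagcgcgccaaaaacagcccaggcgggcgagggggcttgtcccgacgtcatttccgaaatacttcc
Atp5g2: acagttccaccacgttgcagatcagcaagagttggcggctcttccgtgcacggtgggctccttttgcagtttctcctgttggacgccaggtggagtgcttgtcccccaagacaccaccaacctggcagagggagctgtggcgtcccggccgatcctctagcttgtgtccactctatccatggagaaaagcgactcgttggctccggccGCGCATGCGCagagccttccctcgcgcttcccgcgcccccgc
Atp5h: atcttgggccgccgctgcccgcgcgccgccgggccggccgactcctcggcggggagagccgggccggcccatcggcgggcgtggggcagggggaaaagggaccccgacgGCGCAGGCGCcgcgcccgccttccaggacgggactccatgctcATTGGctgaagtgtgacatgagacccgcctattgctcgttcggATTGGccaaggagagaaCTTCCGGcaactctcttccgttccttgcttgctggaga

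The Atp5g1 stretch held 5 CCAAT matches, a pair of them overlapping on opposite strands, and none of the other 3 motifs. The Cox8a stretch held 1 CCAAT match, the Atp5g2 stretch 1 NRF1 match that begins 42 bases before the start, and the Atp5h stretch 1 NRF1, 1 GABP and 2 CCAAT matches. Over the full 300 bases, NRF1 matches were in 17 of the 73 members with an entry (23.3%), beside 12.9% of the 3981 genes compared between lineages that have an entry and 5.19% of all 27025 genes in the table. GABP matches were in 20.5% of members, 22.9% of genes compared and 9.93% of all genes. YY1 matches were in 16.4%, 9.62% and 7.28%, and CCAAT in 43.8%, 42.5% and 41.1%, respectively. The E-box (CACGTG) was in 9.59%, 13.2% and 8.09%, and the TATA box (TATAAA) in 9.59%, 9.32% and 15.7%. The full palindromic site of CREB was in 5.48%, 4.25% and 2.03%, and the site of the estrogen-related receptors in 1.37%, 0.327% and 0.466%. The member shares of these last sites rest on 4 members and on 1 member. A match is a run of letters in the reference and was not measured here as a bound site.

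The 13 mitochondrial genes differed far less between lineages than their nuclear partners. They summed to 48564 and 53362 CPM in monocytic-like cells and to 33717 and 37841 CPM in granulocytic-like cells of the libraries labelled 4T1p and 4T1m, log2 ratios of 0.53 (0.51 to 0.54) and 0.50 (0.49 to 0.51). Of the 13 only 3 were called higher, the complex I genes mt-Nd1 (0.66 and 0.76), mt-Nd3 (0.81 and 0.88) and mt-Nd4l (0.60 and 0.62), and 0 were lower. Among all genes compared 53.9% were called higher and 13.3% lower. The number of mitochondrial UMIs per nuclear respiratory chain UMI was 2.47 and 3.33 in monocytic-like cells and 5.24 and 7.05 in granulocytic-like cells. By complex, the mitochondrial and nuclear log2 ratios in the library labelled 4T1p were 0.59 and 1.62 for complex I, 0.39 and 1.89 for complex III, 0.52 and 1.37 for complex IV, and 0.53 and 1.82 for complex V. The limit on mitochondrial UMIs acts on the mitochondrial sums, and the mitochondrial ratios without that limit are not given here. Without it the nuclear ratios were 1.57 and 1.56.

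The other lists of the organelle differed in their ratios, and their counts are to be read beside the 53.9% of all genes called higher and the 13.3% called lower. All 4 genes of complex II (succinate dehydrogenase) were called higher, with summed log2 ratios of 1.58 and 1.62, from Sdhc (3.06 and 2.93) to Sdha (1.07 and 1.37). In the citric acid cycle, with sums of 1.24 and 1.66, 10 of 12 genes compared were called higher and 0 lower, from Idh3a (2.77, with an interval of 1.19 to 5.07 from 3 granulocytic-like UMIs, and 3.90) to Mdh2 (0.23 and 0.78). All 10 carriers and porins were called higher, with sums of 1.65 and 1.54, among them Slc25a4, an exchanger of ADP and ATP, with 3.18 and 4.02, and the lowest was Tomm7, a small subunit of the import pore, with 0.90 and 0.87. Mitochondrial ribosomal proteins, with sums of 1.47 and 1.49, were called higher in 53 of 61 and lower in 2, with Mrpl3 highest (5.11, interval 2.62 to 10.42, and 4.27, interval 3.13 to 5.73, from 1 and 6 granulocytic-like UMIs) and Mrpl33 lowest (-0.96 and -1.19). Electron carrier and coenzyme Q genes summed to lower ratios of 0.97 and 1.083, and of 9 compared 6 were called higher, a share not far from that of all genes, and 0 lower, from Coq7 (4.17, interval 1.66 to 9.49, and 3.63, from 1 and 6 granulocytic-like UMIs) to Coq10b (-0.16 and -0.19). Medians over genes compared ranked the lists differently from the sums. They were 2.22 and 2.54 for mitochondrial ribosomal proteins and 1.87 and 2.36 for the citric acid cycle, beside 1.93 and 1.81 for the members. Carriers and porins had medians of 1.76 and 1.60, complex II 1.47 and 1.49, and electron carriers 1.31 and 1.80.

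Respiratory assembly factors had summed log2 ratios of -0.05 and 0.15, with 8 of 14 called higher and 2 lower, shares close to those of all genes. Their median log2 ratio was 1.23 and 1.05, beside 0.90 and 1.07 over all genes compared, and 11 and 12 of the 14 were above 0. Uqcc2, needed for complex III assembly, had 2.29 and 2.78, while Higd1a, a small inner membrane protein induced by low oxygen, was called lower and was at 175 and 202 CPM in monocytic-like and at 552 and 426 CPM in granulocytic-like cells. Higd1a made up a large part of the granulocytic-like sums of this list, 1096 and 842 CPM. The sum without Higd1a was not computed. Only 1 of 11 regulators of mitochondrial biogenesis had enough UMIs to be compared: Yy1, with -0.55 and -0.18. Outside the organelle, 0 of 14 glycolysis genes were called higher and 2 lower, with summed log2 ratios of -0.31 and 0.10, from Pgk1 (0.46 and 1.20) to Pfkp (-1.56 and -0.95). Cytosolic ribosomal proteins had the largest summed ratios of these lists, 2.36 and 2.33, with 76 of 81 called higher and 0 lower, from Rpl10a (3.94 in both) to Rps27 (0.10 and -0.11).

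The remaining 16 members stayed under the minimum of 100 UMIs and were not compared. They were Cox4i2, Cox6a2, Cox6b2, Cox7a1, Cox7b2, Cox8b, Cox8c, Ndufa4l2, Ndufaf1, Ndufaf2, Ndufaf4, Ndufaf5, Ndufaf6, Ndufaf7, Atp5s and Atp5sl. No UMI was seen for 3 of them in any kept cell: Cox7b2, Cox8b and Cox8c, isoforms known from testis or from heart and skeletal muscle. The muscle isoforms Cox6a2 and Cox7a1 had 30 and 109 UMIs in all, and Cox6b2, a testis isoform, had 48. Cox4i2, the isoform of subunit 4 known from lung and from low oxygen, had 78 and 94 UMIs in monocytic-like cells (16.9 and 13.02 CPM) and 0 and 2 UMIs in granulocytic-like cells. Within the monocytic-like clusters Cox4i2 was at 36.4 and 44.6 CPM in cluster 0 and at 10.2 and 3.14 CPM in cluster 4, described further on. All 32 UMIs of Ndufa4l2, a gene induced by low oxygen, came from 4 cells, all of the library labelled 4T1m and all monocytic-like.

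The common isoforms were seen throughout. Cox4i1 was at 972 and 889 CPM in monocytic-like cells and at 294 and 262 CPM in granulocytic-like cells, ratios of 1.73 and 1.76. The partners of the rare isoforms had ratios of 0.99 and 0.89 (Cox6a1), 1.18 and 1.12 (Cox6b1), 0.82 and 1.04 (Cox7a2), 2.06 and 1.42 (Cox7a2l), 2.19 and 2.32 (Cox7b) and 2.45 and 2.36 (Ndufa4). Cox7a2l, which helps to join complexes III and IV into supercomplexes, was therefore called higher together with the regular subunit Cox7a2. The members lie on 19 chromosomes, with 3 on the X chromosome (Ndufa1, Ndufb11 and Cox7b), and 4 (Ndufb2, Ndufa13, Cox4i1 and Ndufb8) overlap another gene on the same strand, so their counts are less certain. Reads from processed pseudogenes of the members were not examined.

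Within each lineage the cells fell into clusters that differed in the level of the module. In monocytic-like cells, cluster 7, led by Birc5, Top2a and other genes of dividing cells, was at 28606 and 25188 CPM in the libraries labelled 4T1p and 4T1m. Cluster 6, led by Cxcl9, Ccl8 and H2-Eb1, was at 26097 and 26001 CPM, and cluster 0 at 26585 and 23725 CPM. Cluster 0 was led by Fabp5, Slc25a4 and Lgals1, and 3 members (Cox7b, Uqcrb and Ndufs5) were among its 10 leading genes although they had no part in the clustering. None of the 10 leading genes was a monocytic marker. All 10 monocytic markers were detected in cluster 0, as in every monocytic-like cluster. The lineage was named from these markers, so their detection is no separate support for it. Of the 10, 5 to 7 were detected in the granulocytic-like clusters and 8 in the B cell-like cluster. Lower were cluster 4, led by C6, Ifnb1, Ccl5 and Cx3cr1, with 17511 and 15690 CPM, and cluster 1, led by Vcan, Thbs1 and Il6, with 15764 and 13562 CPM.

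The 4 granulocytic-like clusters lay between 4861 and 7832 CPM. Cluster 5, led by Slc2a3, Prok2 and Cxcr2, was at 7832 and 5837 CPM, and cluster 8, led by the granule genes Camp, Ngp and Ltf of immature neutrophils, at 6932 and 5729 CPM. Cluster 3, led by Mirt1, Hdc and Il1f9, was at 6152 and 5119 CPM, and cluster 2, led by Ccdc126, Ciart and Tnfrsf23, at 5907 and 4861 CPM. The highest granulocytic-like value therefore lay below the lowest monocytic-like value. T cell-like cells were at 16739 and 14259 CPM, from 8 and 21 cells, and the 34 B cell-like cells of the library labelled 4T1m at 13675 CPM. Gene by gene, every monocytic-like cluster lay above every granulocytic-like cluster for 63 of the 72 members in the library labelled 4T1p and for 70 in the library labelled 4T1m. The highest cluster was 7, 6 or 0 for each of the 72 in both libraries, and the lowest was cluster 2 for 30 and 38 of them. These counts by cluster were not made over all genes, so they do not show a trait particular to the module. Between the pooled lineages 53.9% of all genes compared were called higher in monocytic-like cells.

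**Figure D3:**
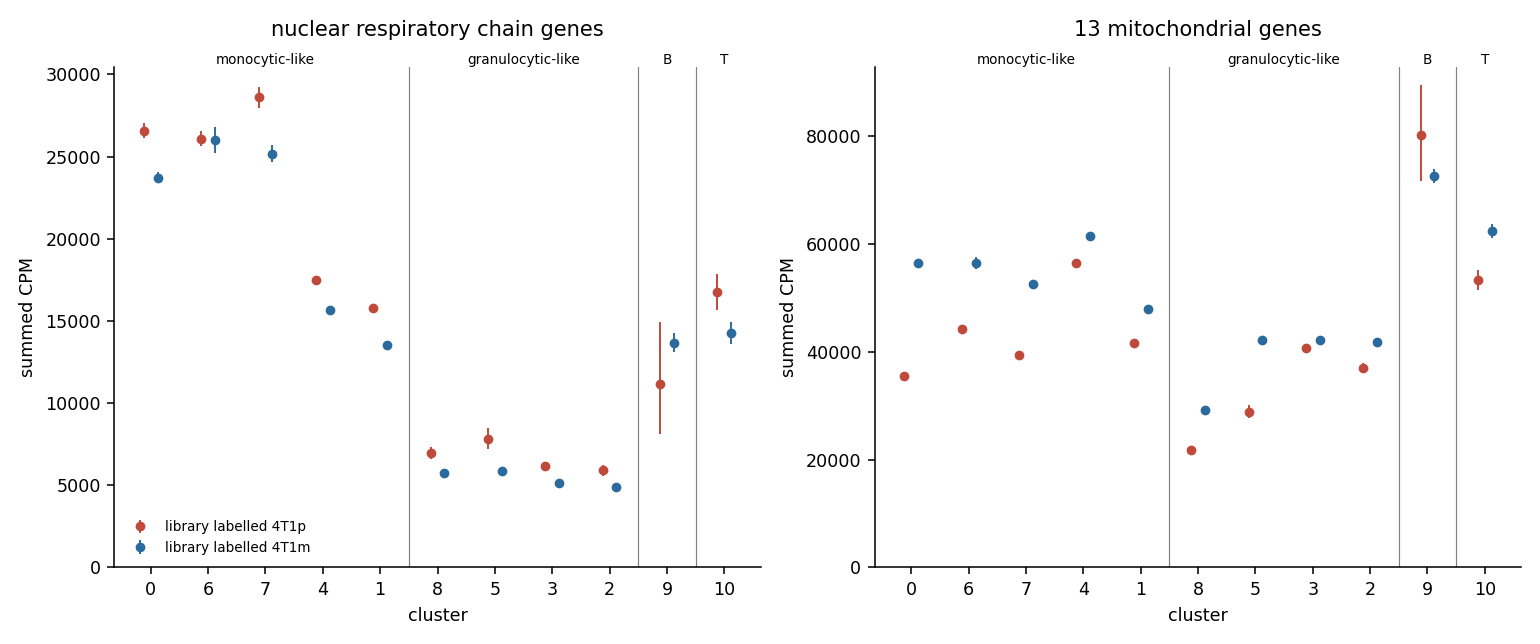
Summed CPM of the 88 nuclear genes (left) and of the 13 mitochondrial genes (right) in each cluster, for the libraries labelled 4T1p (red) and 4T1m (blue), with bars for 95% counting intervals. Nuclear sums of the monocytic-like clusters (0, 6, 7, 4, 1) are at 13562 CPM or more and those of the granulocytic-like clusters (8, 5, 3, 2) at 7832 CPM or less, while the mitochondrial sums of both lineages overlap in the library labelled 4T1p but not in the library labelled 4T1m, where the lowest monocytic-like one is 47886 CPM and the highest granulocytic-like one 42242 CPM.

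The mitochondrial sums did not follow the same order. Cluster 4 had the highest mitochondrial level of the myeloid clusters, 56418 and 61578 CPM, and cluster 8 the lowest, 21692 and 29158 CPM. Cluster 0 was at 35594 and 56535 CPM, which overlaps the granulocytic-like clusters in the library labelled 4T1p. Mitochondrial UMIs per nuclear UMI were lowest in cluster 0 in the library labelled 4T1p, at 1.34, and in cluster 7 in the library labelled 4T1m, at 2.09. They were highest in cluster 3 in the first, at 6.60, and in cluster 2 in the second, at 8.60. Clusters 0, 6 and 7, with the highest nuclear levels, were also the shallow ones of their lineage, with medians of 908.5, 1458 and 1496 UMIs beside 13166 and 10553 in clusters 4 and 1. A UMI of Ptprc, the pan-leukocyte gene, was found in 19.0%, 27.5% and 27.9% of their cells and in 83.2% and 91.5% of the cells of clusters 4 and 1. The study required Ptprc to remove non-immune cells, a filter that the main comparisons here did not use. With it, 335 and 610 monocytic-like cells remained.

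Depth moved with the level of the module in monocytic-like cells. Those under 5000 UMIs (621 and 547 cells) were at 27809 and 24102 CPM and those from 5000 UMIs (247 and 468 cells) at 17739 and 14995 CPM, log2 differences of 0.65 (0.63 to 0.67) and 0.68 (0.66 to 0.71). Of 72 members compared, 39 were at least 1.5-fold higher in the shallow cells in both libraries, where 7.72% of all 4725 genes compared were. The same held for 21 of 36 complex I genes, 3 of 8 in complex III, 6 of 12 in complex IV, 9 of 15 in complex V, 21 of 60 mitochondrial ribosomal proteins, 7 of 79 cytosolic ribosomal proteins and 0 of 14 glycolysis genes. The 13 mitochondrial genes went the other way or stayed close, with log2 differences of -0.66 and -0.07. In granulocytic-like cells the difference was -0.19 and -0.16, but the direction did not hold across classes of depth: cells under 1000 UMIs were at 8919 and 6756 CPM, those from 5000 to 10000 UMIs at 6007 and 4884 CPM, and the 7 and 23 cells from 10000 UMIs at 8188 and 7591 CPM.

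Transcript length also moved with the split by depth. Among genes other than members, the median log2 difference of shallow over deep monocytic-like cells was 0.47 and 0.51 for transcripts under 1000 bases, 0.29 and 0.25 from 1000 to 2000 bases, -0.18 and -0.16 from 2000 to 4000 bases, and -0.77 and -0.54 from 4000 bases. Members are short, with a median of 849.5 bases beside 2775.5 for all genes compared. Within the same length classes their medians were above those of other genes, with 0.62 and 0.72 for the 43 members under 1000 bases and 0.63 and 0.65 for the 23 members from 1000 to 2000 bases. The part of depth, length and Ptprc in the lineage result was not tested. With the monocytic-like cells limited to those from 5000 UMIs, and the granulocytic-like cells not limited, their log2 ratio was 1.46 and 1.48. There 68 of 72 members were called higher, beside 2457 of all 4653 genes compared, with 628 genes lower. With both lineages limited to cells of 1000 to 5000 UMIs the ratio was 2.18 and 2.20. All 61 members then compared were called higher, beside 657 of all 1480 genes compared, with 464 genes lower.

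**Figure D4:**
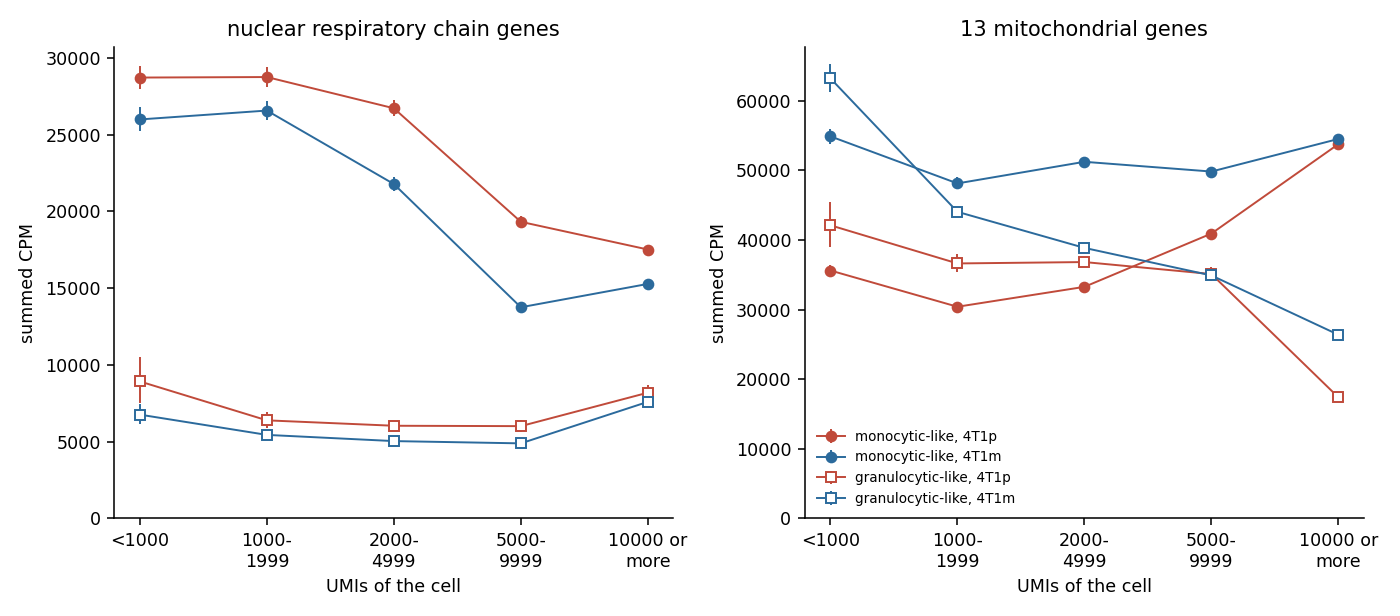
Summed CPM of the 88 nuclear genes (left) and the 13 mitochondrial genes (right) in 5 classes of UMIs per cell, for monocytic-like (filled circles) and granulocytic-like cells (open squares) of the libraries labelled 4T1p (red) and 4T1m (blue), with bars for 95% counting intervals. In monocytic-like cells the nuclear level is 28724 and 25995 CPM under 1000 UMIs and 17518 and 15275 CPM from 10000 UMIs. The fall is not steady: in the library labelled 4T1m the lowest class is 5000 to 10000 UMIs, at 13754 CPM. In every class the monocytic-like level stays above the granulocytic-like one.

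Between the libraries, the nuclear genes were lower in the one labelled 4T1m in both lineages and the mitochondrial genes were higher. The nuclear log2 ratio of 4T1m over 4T1p was -0.29 (-0.31 to -0.28) in monocytic-like and -0.26 (-0.31 to -0.22) in granulocytic-like cells, and the mitochondrial one 0.14 (0.13 to 0.14) and 0.17 (0.15 to 0.19). The median over all genes compared was 0.13 and 0.09. The mix of clusters differed between the libraries: cluster 1, with the lowest monocytic-like level, held 97 and 336 cells, and cluster 6 held 194 and 64. With every cluster given the same weight the nuclear ratio was -0.15 in monocytic-like and -0.31 in granulocytic-like cells, smaller and larger than the pooled values. Cytosolic ribosomal proteins differed by nearly the same amount as the module, -0.29 and -0.25, and mitochondrial ribosomal proteins by -0.19 and -0.21.

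Other values moved with the library as well. The 3 erythroid markers summed to 10.8 and 1336 CPM in monocytic-like and to 24.3 and 403 CPM in granulocytic-like cells, and 1 of them was at 0 in each lineage of the library labelled 4T1p. The 4 fibroblast markers summed to 0.65 and 36.4 CPM in monocytic-like and to 1.21 and 4.45 CPM in granulocytic-like cells. In the library labelled 4T1p these sums rest on 3 UMIs and 1 UMI. The 5 epithelial markers went the other way, with 35.9 and 13.6 CPM in monocytic-like and 19.4 and 9.85 CPM in granulocytic-like cells. A Ptprc UMI was found in 45.9% and 75.3% of all kept cells. The part of these in the difference between libraries was not tested, and with a Ptprc UMI required the nuclear ratio in monocytic-like cells was -0.23.

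The nuclear shift was under 1.5-fold for most members and went mostly one way. In monocytic-like cells 73 of 77 members compared had a ratio below 0, beside 3045 of all 7585 genes, and for 63 members the interval lay below 0. Only 4 members were at least 1.5-fold lower, beside 6.14% of all genes, and only 1 was higher, beside 22.3%, so the share of lower calls was close to that of all genes. In granulocytic-like cells 44 of 51 members compared were below 0, beside 1357 of 3114 genes, with the interval below 0 for 12. Neither count of intervals is given here for all genes, so these counts do not show a trait particular to the module. There 4 were called lower and 1 higher, beside 8.9% and 18.9% of all genes. The complexes moved alike in monocytic-like cells, from -0.28 for complex V to -0.30 for complexes I and IV. In granulocytic-like cells they ran from -0.32 for complex IV to -0.05 (-0.19 to 0.10) for complex III.

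In monocytic-like cells the lowest ratios were those of Ndufb2 (96.5 CPM in the library labelled 4T1p and 51.8 in that labelled 4T1m), an accessory subunit of complex I, and Atp5h (337 and 195 CPM), the d subunit of the ATP synthase stator. Their log2 ratios were -0.90 (-1.10 to -0.70) and -0.79 (-0.90 to -0.69). Atp5k, Ndufaf3 and Ndufa9 followed with -0.64, -0.63 and -0.56. Ndufs1 was the member called higher, at 24.02 and 38.4 CPM, a ratio of 0.68 (0.35 to 1.01). Atp5a1 was the only other member with an interval above 0, at 341 and 383 CPM and a ratio of 0.17 (0.08 to 0.26). Uqcrfs1 and Ndufa10 had 0.07 each, with intervals that hold 0, and Atp5sl had -0.03.

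In granulocytic-like cells the lowest ratios were Ndufb4 (57.0 and 35.0 CPM, -0.71), Cox5a (163 and 101.04 CPM, -0.69), Uqcrb (57.0 and 36.9 CPM, -0.63), Atp5o (43.7 and 28.6 CPM, -0.61) and Cox7b (83.8 and 55.9 CPM, -0.58). The highest was Ndufa12, an accessory subunit of complex I, at 34.0 and 51.2 CPM and a ratio of 0.59, followed by Cox7a2l with 0.41, Atp5k with 0.39 (-0.28 to 1.12), Uqcrh with 0.29 and Uqcrfs1 with 0.12. Ndufa12, Cox7a2l and Uqcrh were the members with an interval above 0. Many granulocytic-like levels rest on few UMIs, such as 28 for Ndufa12 in the library labelled 4T1p, so differences of this size were at the limit of the depth.

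**Figure D5:**
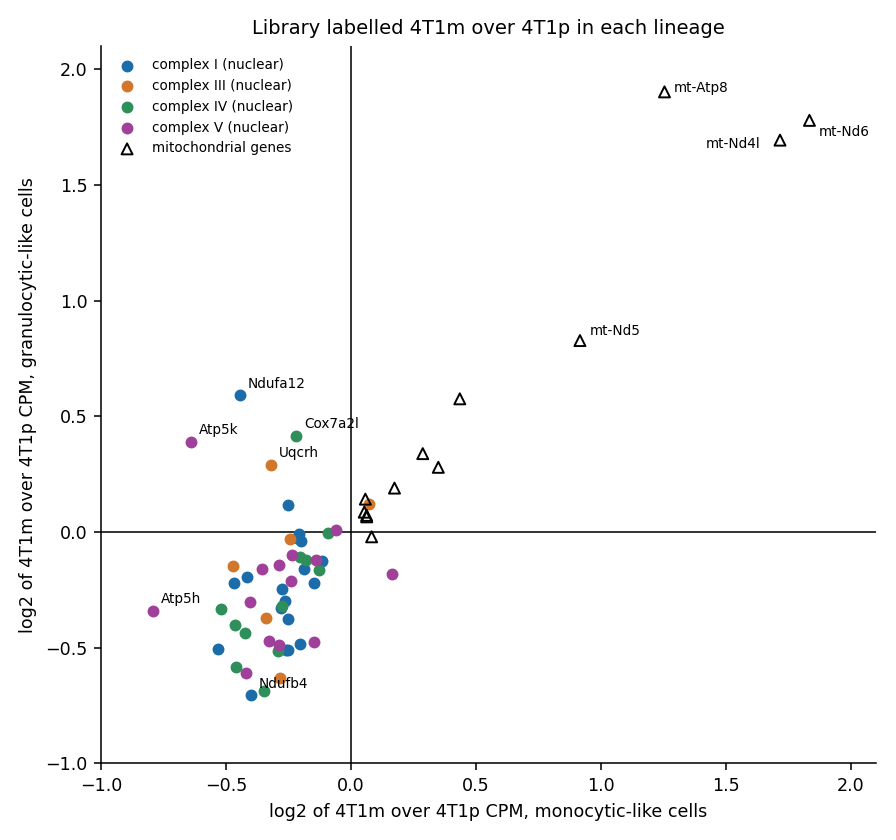
Log2 ratio of the library labelled 4T1m over that labelled 4T1p in monocytic-like cells (horizontal) and granulocytic-like cells (vertical) for the 51 nuclear genes compared in both lineages (dots, colored by complex) and the 13 mitochondrial genes (triangles). Most nuclear genes lie below 0 on both axes, Ndufa12, Cox7a2l, Atp5k and Uqcrh lie highest on the vertical axis while below 0 on the horizontal one, and the mitochondrial genes lie above 0 on both except mt-Nd1, at -0.02 on the vertical axis.

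The mitochondrial difference between libraries was uneven. In monocytic-like cells mt-Nd6 was at 26.8 and 95.7 CPM, mt-Nd4l at 99.1 and 326 CPM, mt-Atp8 at 45.2 and 108 CPM and mt-Nd5 at 401 and 757 CPM, log2 ratios of 1.84, 1.72, 1.26 and 0.92. In granulocytic-like cells the same 4 genes had 1.78, 1.69, 1.90 and 0.83. They were the mitochondrial genes called higher in either lineage, 4 of 13. Among all genes compared, 22.3% were called higher in monocytic-like and 18.9% in granulocytic-like cells. On the same strand mt-Atp8 overlaps mt-Atp6, and mt-Nd4l overlaps mt-Nd4 (0.29 and 0.34), so the counts of these pairs are less certain. The granulocytic-like levels of mt-Nd6 and mt-Atp8 in the library labelled 4T1p rest on 19 and 22 UMIs. The genes mt-Co1, mt-Co2, mt-Atp6 and mt-Cytb differed by 0.05 to 0.14 in both lineages, and mt-Co3 by 0.17 and 0.19. By cluster, the nuclear ratio was below 0 with its interval in 8 of the 9 myeloid clusters, from -0.42 in cluster 5 to -0.16 in cluster 4, and was -0.0053 (-0.057 to 0.047) in cluster 6. The mitochondrial ratio was above 0 with its interval in all 9, from 0.06 in cluster 3 to 0.67 in cluster 0. The cause of these differences between libraries was not tested, and with 1 library per tumor line it cannot be told apart from library preparation.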

How the data were processed

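Single-cell RNA was measured in 2 libraries of GR-1+ tumor cells. The deposited matrices hold counts of UMIs per gene and barcode that the authors made with Cell Ranger (matrix header software version 3.1.0) on GRCm38, with 1 filtered matrix per library, and the counts were used as deposited. Kept barcodes held 5505709 and 10672342 UMIs. Gm42418 and AY036118, which collect ribosomal RNA (1.76% and 2.06% of UMIs), were left out of all totals. Cells of both libraries were clustered with Seurat 5.3.0 and sctransform 0.4.2 (version 1 model, 11 components, Louvain resolution 0.8) without the members and the mitochondrial genes, and clusters were named by marker lists. Doublets were kept, and removing the highest Scrublet scores was an alternative. UMIs were summed per lineage and library, divided by the total and given as CPM with exact Poisson intervals. Ratios have exact binomial intervals (scipy 1.17.1). Lineages were compared for genes with 100 UMIs or more over both lineages in each library, and libraries for genes with 100 UMIs or more over both libraries in a lineage, and a call needed 1.5-fold, for the lineages in both libraries. Intervals were tested on simulated Poisson counts, which hold counting error but no differences between cells, clusters or animals. There were no replicates, so no p-value is given. Transcript lengths and overlaps came from GENCODE vM21.

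Named were the 5 highest and 5 lowest members of each comparison, the cofactor and catalytic subunits, tissue isoforms with their partners, members under the minimum, mitochondrial genes, and the highest and lowest gene of each list. Clusters, Cox4i2 by cluster and genes outside these groups were named after their values were seen. One item is not reported here by name. Members and gene lists were chosen with earlier results of these data known.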

Additional observations from a re-analysis of the deposited data

Results flagged for a closer look

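For 3 of the 51 members compared in both lineages, the ratio of the library labelled 4T1m over that labelled 4T1p went in opposite directions in the lineages. Their counting intervals lay on opposite sides of 0. The number of all genes with such intervals is not given here, so the 3 are not shown to be unusual. Uqcrh, the hinge subunit of complex III, had a log2 ratio of -0.32 in monocytic-like and 0.29 in granulocytic-like cells. Ndufa12 had -0.44 and 0.59, and Cox7a2l -0.22 and 0.41. With 1 library per tumor line these differences between lineages were not tested, and the intervals cover counting error only. The granulocytic-like levels in the library labelled 4T1p rest on 134, 28 and 76 UMIs.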

How the results depend on the processing

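In all alternatives run the nuclear genes kept their direction: higher in monocytic-like cells, and lower in the library labelled 4T1m in both lineages. Between lineages, the log2 ratios in the libraries labelled 4T1p and 4T1m were 0.71 and 0.50 when centred on the median of all genes, 1.20 and 1.15 with the 20 most abundant genes of either lineage left out of the total, 1.96 and 1.86 with cells thinned to 1000 UMIs, 1.97 and 1.94 as the mean of per-cell CPM, 1.52 and 1.52 with a Ptprc UMI required, 1.68 and 1.63 with the highest Scrublet scores removed, 1.71 and 1.53 with at most 5% mitochondrial UMIs, and 1.36 and 1.38 with lineages set by summed markers. In the library labelled 4T1p alone they were 1.66 without the upper limit on genes and UMIs and 1.67 with Leiden clusters, and in the library labelled 4T1m 1.60 with the mitochondrial genes left out of the total. Chosen after the data were seen, cells with 1000 to 5000 UMIs gave 2.18 and 2.20, and monocytic-like cells from 5000 UMIs gave 1.46 and 1.48. The count of members called higher was 41 when centred, and in the other alternatives ran from 50 (of 51 compared, thinned) to 79 (of 84 compared, with no UMI minimum). Among all genes compared, 1657 of 5122 were called higher when centred, 498 of 1043 when thinned and 7624 of 13689 with no UMI minimum. Between libraries, the ratio in monocytic-like cells was -0.43 centred, -0.41 with at most 5% mitochondrial UMIs, -0.35 thinned, -0.32 per cell, -0.25 without the mitochondrial limit, -0.24 from 5000 UMIs, -0.23 with Ptprc, -0.22 at 1000 to 5000 UMIs and -0.15 with clusters weighted equally. In granulocytic-like cells it was -0.35 centred, -0.31 with clusters weighted equally and -0.22 without the upper limit. The cause of these changes was not tested. Leaving out a replicate was not possible with 1 library per tumor line. No paired analysis was possible because each tumor line has 1 library and the result comes from no test. Depth limits the genes with few granulocytic-like UMIs, and 16 members could not be compared.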

Other observations

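Barcodes above the limit of 1 mitochondrial UMI in 8 are in no comparison above except those made without that limit. With the mitochondrial genes left out of the total, the nuclear genes summed to 14303 CPM in the 104 barcodes of the library labelled 4T1p between that limit and 25% mitochondrial UMIs and to 9784 CPM in the 182 barcodes over 25%. In the library labelled 4T1m the sums were 12718 CPM in 268 barcodes and 9746 CPM in 235. Barcodes with at most 5% were at 18372 and 11934 CPM, those from 5% to 8% at 18854 and 15797 CPM and those from 8% to the limit at 18047 and 14777 CPM. Lineages were not separated in these classes, and their mix differed. From the lowest class to the highest, granulocytic markers took 38450, 7093, 11353, 25861 and 22808 CPM in the library labelled 4T1p. In the library labelled 4T1m they took 74864, 16662, 20778, 28686 and 31143 CPM. The part of this mix in the nuclear sums was not tested.

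The biogenesis regulators, of which 1 was abundant enough to compare between lineages, had 7 genes compared between libraries in monocytic-like cells. Of these 6 had a ratio of the library labelled 4T1m over that labelled 4T1p above 0, with a median of 0.54, and 3 were at least 1.5-fold higher and 1 lower. Over all 7585 genes compared in monocytic-like cells the median was 0.13, 4540 were above 0, and 22.3% were called higher and 6.14% lower.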
